A study of Saccharomyces cerevisiae with 4 samples.

Results

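The 10 genes described here encode the heat shock proteins of Saccharomyces cerevisiae that stand outside the Hsp70 family: the Clp-type chaperones HSP104 (YLL026W) and HSP78 (YDR258C), the Hsp90 pair HSP82 (YPL240C) and HSC82 (YMR186W), the chaperonin HSP60 (YLR259C) with its partner HSP10 (YOR020C), the small heat shock proteins HSP26 (YBR072W) and HSP42 (YDR171W), and the membrane-associated HSP12 (YFL014W) and HSP30 (YCR021C). They were chosen by the gene name that the platform annotation gives to a probe. All 10 had 1 probe each, every probe was measured on all 4 arrays, and the 10 genes were tested among 4072 named genes of an array with 6256 probes.

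Yeast carrying pAG305GPD-AAE13, an integrating vector that expresses the plant malonyl-CoA synthetase AAE13 from the strong glycolytic GPD (TDH3) promoter, was set against yeast carrying pAG305GPD-ccdB, in which the ccdB cassette stands in place of the gene. Both strains thus share the vector and its LEU2 marker, and both were grown with shaking at 30 °C in drop-out medium, given malonate to 0.2 mM at an optical density of 0.1, and harvested in mid-log phase. No heat treatment is part of the design, and the labels give neither the parent strain nor the number of transformant clones behind the 4 cultures of each strain. Each of the 4 two-colour arrays compared 1 AAE13 culture with 1 ccdB culture, and the dyes were swapped: arrays 1 and 3 carried AAE13 in Cy5, arrays 2 and 4 carried it in Cy3.

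Each value is a log2 ratio centred on the median of its array, so that 0 is the typical probe of that array. Which strain is the numerator is not stated in any source used here. The 4 pairs of arrays with opposite dye orientation correlated at a mean r of 0.576 over all probes, and the ratios were therefore read as running one way on all arrays. AAE13 over ccdB is called likely only because the series title names the strains in that order. The titles of arrays 2 and 4 name ccdB before AAE13, which goes with ratios left unturned on those arrays; read so, 0 of 4072 genes passed in limma (154 at an unadjusted p under 0.05). The opposite turn would reverse every "higher" and "lower" below, and a dye effect common to ratios that were never turned cannot be told apart from a strain difference. The base of the logarithm is also inferred from the values, and fold sizes assume base 2. Signal over background is unknown for all probes, and the number of arrays limits the precision.

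Heat shock proteins are chaperones and related protectants that many cells make in larger amounts when proteins unfold. In yeast many of their genes are driven mainly by Hsf1, the heat shock factor, and by the paired general stress factors Msn2 and Msn4. Several heat shock protein genes, such as HSC82, HSP60 and HSP10, are also highly expressed in unstressed cells. Hsp104 pulls proteins out of aggregates together with Hsp70 and J-proteins, Hsp78 does so in the mitochondrial matrix, Hsp90 completes the folding of kinases and other clients, Hsp60 and Hsp10 form the folding chamber of the matrix, and the small heat shock proteins hold unfolding proteins until they can be refolded.

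The 10 genes did not move together. HSP78 rose, HSP60 and HSP10 fell, and the other 7 did not reach the threshold, an adjusted p under 0.05 in limma. Across all named genes 24.8% passed, 13% higher and 11.8% lower, so 3 of 10 is near the share of the whole array. The median of the 10 mean log2 ratios was -0.11, against -0.02 for all named genes. Of the 7 that did not pass, 4 lay just beyond the threshold, with adjusted p between 0.0507 and 0.0633 in limma: HSP104 and HSP42 on the higher side, HSP82 and HSC82 on the lower side. HSP12, HSP26 and HSP30 were further from it. Single arrays moved the count: 1 member passed without array 4 (HSP10) and 5 passed without array 3 (HSP78, HSP60, HSP10, HSP82 and HSC82), where 10.5% and 25.7% of all genes passed. Without array 1 there were 2 (HSP78 and HSP10; 15.3% of all genes) and without array 2 there were 3 (HSP78, HSP104 and HSP10; 19.4%). A term for dye orientation in the model gave 6 members (31.3% of all genes), an adjusted p under 0.1 gave 7 (35.4%) and one under 0.01 gave 1 (9.58%).

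**Figure D1:**
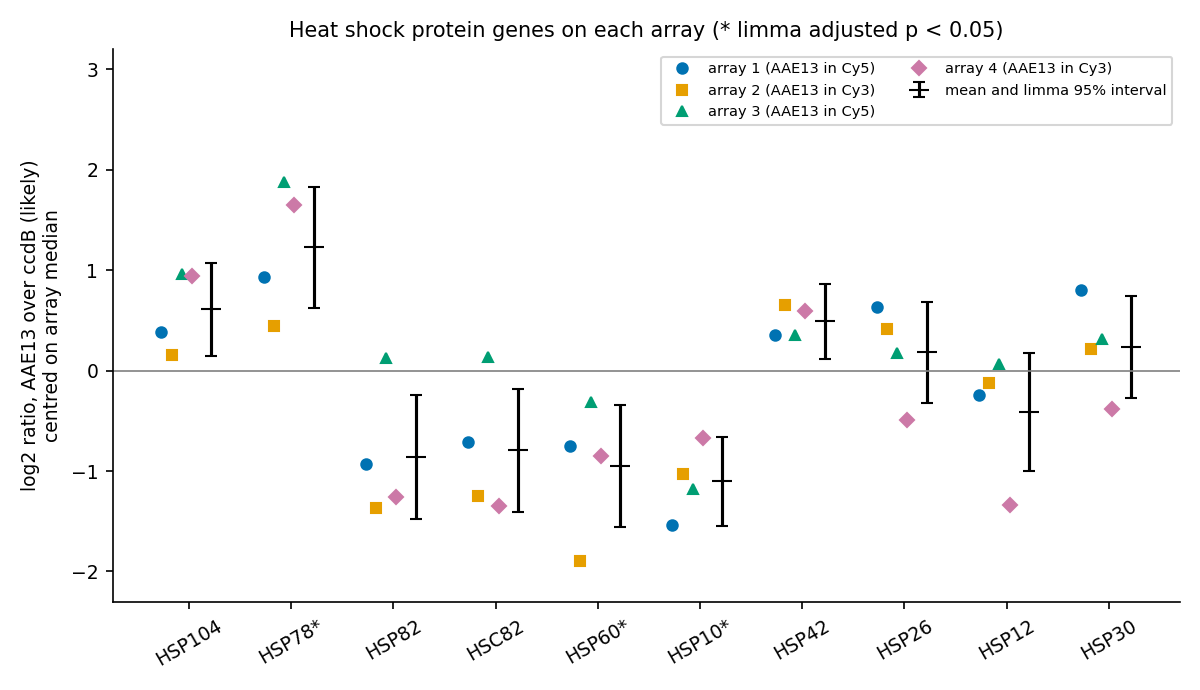
Log2 ratio of each heat shock protein gene (vertical axis, AAE13 over ccdB as the likely direction, centred on the array median) on arrays 1 to 4 (coloured symbols), with the mean and limma's 95% interval in black; an asterisk marks an adjusted p under 0.05. HSP78 lies above 0 and HSP60 and HSP10 lie below 0 on every array, while HSP82 and HSC82 are below 0 on arrays 1, 2 and 4 and just above it on array 3.

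Among the Clp-type chaperones, HSP78, the matrix disaggregase, stood at log2 ratios of 0.94, 0.45, 1.88 and 1.65 from array 1 to array 4. It was above the array median on all 4, higher on arrays 3 and 4 than on arrays 1 and 2. The mean was 1.23 ± 0.66 (SD, n = 4), a 2.34-fold difference with a 95% interval from 1.54-fold to 3.56-fold (limma adjusted p = 0.0139). This mean ranked 185th from the top of 4072 genes. Without array 4 the mean was 1.09 and the adjusted p 0.0745. Its rank within an array, which centring cannot change, was at the 92.8th, 71.6th, 97.6th and 96.5th percentile of named genes on arrays 1 to 4.

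HSP104, the cytosolic disaggregase on which acquired heat tolerance and several yeast prions depend, had log2 ratios of 0.38, 0.15, 0.96 and 0.94. All 4 values were above 0 and, as for HSP78, those of arrays 3 and 4 were the higher. The mean of 0.61 ± 0.41 (SD, n = 4) corresponds to 1.53-fold, with a 95% interval from 1.10-fold to 2.11-fold (adjusted p = 0.0616, limma), and missed the threshold. It passed without array 2, at a mean of 0.76 and an adjusted p of 0.0427, and with the arrays not centred, at 1.22 and 0.0282. HSP78 exceeded HSP104 within every array, by 0.56, 0.29, 0.92 and 0.71 on the log2 scale. The difference of 0.62 ± 0.26 (SD, n = 4) was matched or exceeded by 2 of the 16 sign patterns of an exact two-sided sign-flip permutation test, the smallest share that 4 arrays allow (adjusted p = 0.5 over 4 pairs). Its 95% interval, which like those of the other pairs assumes a normal spread over arrays and is not adjusted for the 4 pairs, ran from 0.20 to 1.04.

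The chaperonin pair fell. HSP10, the lid of the chamber, stood at -1.53, -1.03, -1.18 and -0.67 on the log2 scale from array 1 to array 4. All 4 values were below 0, the lowest on array 1 and the highest on array 4. Its mean was -1.10 ± 0.36 (SD, n = 4), a 2.15-fold lower ratio (limma adjusted p = 0.00665), and its percentile among named genes was 2.7, 12.8, 4.3 and 17.3. HSP10 passed without any one of the arrays, with means from -1.25 to -0.96.

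HSP60, whose protein forms the barrel of the chamber and is essential for growth, had log2 ratios of -0.75, -1.89, -0.31 and -0.85. It too was below 0 on every array, but the value of array 2 stood well under the others. Its mean was -0.95 ± 0.67 (SD, n = 4), or 1.93-fold lower (limma adjusted p = 0.0362). That call was lost without array 1, 2 or 4, at adjusted p = 0.0755, 0.0769 and 0.109, and the mean then ran from -1.02 to -0.64. The partners did not track each other over the arrays: HSP60 minus HSP10 was 0.78, -0.87, 0.87 and -0.18, positive with AAE13 in Cy5 and negative with AAE13 in Cy3. The mean difference was 0.15 ± 0.83 (SD, n = 4; exact sign-flip permutation p = 0.875; adjusted p = 0.875), with a 95% interval from -1.17 to 1.47.

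Both falls are relative to the typical gene. With the arrays left as deposited, where the median of all named genes was at 0.58, HSP10 was at -0.49 and HSP60 at -0.34, and neither passed (limma adjusted p = 0.404 and 0.574). HSP78 was then at 1.84 (adjusted p = 0.000364). In that setting 2 members passed, HSP78 and HSP104, both higher, and of all genes 19.6% passed, 18.3% as higher and 1.35% as lower.

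The Hsp90 genes gave nearly the same values. HSP82, the copy that heat induces strongly, had log2 ratios of -0.93, -1.37, 0.12 and -1.26. HSC82, the copy that is abundant without stress, had log2 ratios of -0.71, -1.25, 0.13 and -1.34. Both were low on arrays 1, 2 and 4 and close to the array median on array 3. The means were -0.86 ± 0.68 and -0.79 ± 0.68 (SD, n = 4), and neither passed (adjusted p = 0.0507 and 0.0633, limma). Without array 3 they were at -1.18 and -1.10 and both passed (adjusted p = 0.00589 and 0.00968), and both also passed with a term for dye orientation (0.0359 and 0.0315), HSP82 also with array weights (0.0426).

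The difference between the copies within an array was -0.22, -0.12, -0.01 and 0.09, with a mean of -0.06 ± 0.13 (SD, n = 4; exact sign-flip permutation p = 0.375; adjusted p = 0.667). Its 95% interval ran from -0.27 to 0.15. The genes are close copies in sequence, and whether each probe reads its own transcript alone was not tested. The ratios were lower with AAE13 in Cy3: the mean of arrays 2 and 4 was -1.31 for HSP82 and -1.30 for HSC82, and the mean of arrays 1 and 3 was -0.40 and -0.29. This difference between dye orientations did not pass for either gene (adjusted p = 0.317 and 0.263, limma), and 0 of the 4072 named genes passed that test. Were the ratios never turned, this contrast would hold the strain difference and the means a dye effect. The test therefore cannot show whether a dye effect is absent.

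**Figure D2:**
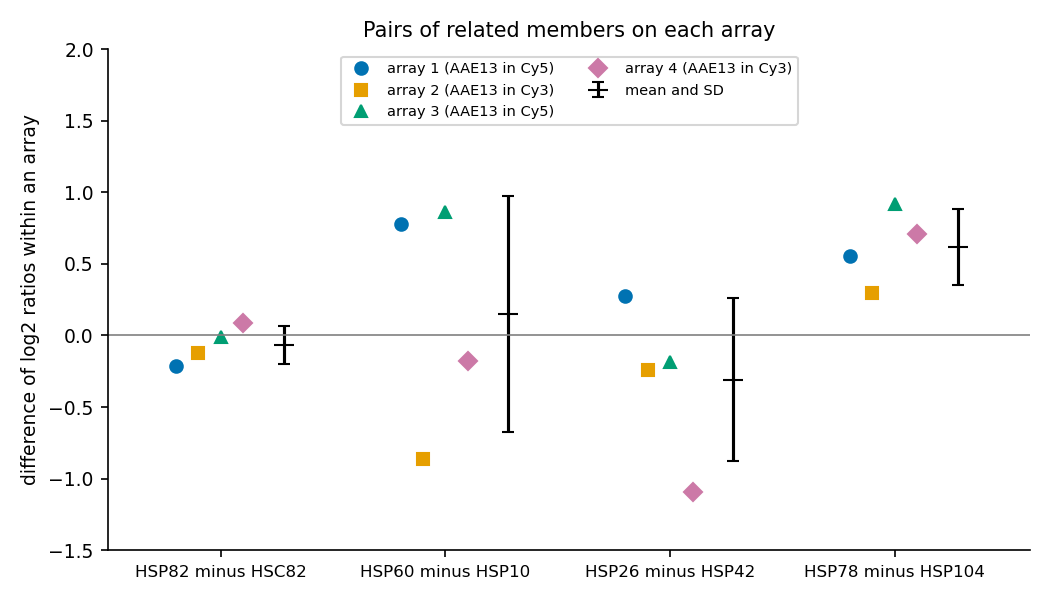
Difference of log2 ratios between related members within each array (vertical axis, coloured symbols for arrays 1 to 4), with the mean and SD over arrays in black. HSP78 exceeds HSP104 on all 4 arrays, HSP82 and HSC82 differ by 0.22 or less on each, and HSP60 minus HSP10 changes sign with the dye orientation.

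The small heat shock protein genes differed in how steady they were. HSP42, which acts at normal growth temperatures and gathers misfolded proteins into cytosolic deposits, had log2 ratios of 0.36, 0.65, 0.36 and 0.60. It was above 0 on every array and had the smallest SD of the 10 members, with a mean of 0.49 ± 0.16 (SD, n = 4), or 1.40-fold, and a 95% interval from 1.08-fold to 1.82-fold. It missed the threshold (limma adjusted p = 0.0620), except with a dye term (0.0332) among the settings that kept the threshold at 0.05.

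HSP26, the heat-activated small heat shock protein, had log2 ratios of 0.64, 0.41, 0.17 and -0.49. It was above the median on arrays 1 to 3 and below it on array 4. The mean was 0.18 ± 0.49 (SD, n = 4; limma adjusted p = 0.569), with a 95% interval from -0.33 to 0.69. HSP26 minus HSP42 was 0.28, -0.24, -0.19 and -1.09, which spread around 0 with a mean of -0.31 ± 0.57 (SD, n = 4; exact sign-flip permutation p = 0.5; adjusted p = 0.667) and a 95% interval from -1.22 to 0.60.

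HSP12, a small and largely unfolded protein that binds membranes and is among the genes most strongly induced by Msn2 and Msn4, had log2 ratios of -0.24, -0.12, 0.07 and -1.34. Only array 4 lay far from the median. The mean was -0.41 ± 0.63 (SD, n = 4; limma adjusted p = 0.265), with a 95% interval from 0.502-fold to 1.13-fold, and it was -0.10 without array 4. With the arrays not centred the mean was 0.20.

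HSP30, a plasma membrane protein that restrains the proton pump Pma1 under stress, had log2 ratios of 0.80, 0.22, 0.32 and -0.38. The first 3 arrays were above the median and the fourth was below it. Its mean was 0.24 ± 0.49 (SD, n = 4), which did not pass (adjusted p = 0.449, limma), and its 95% interval ran from 0.830-fold to 1.67-fold. HSP12, HSP26 and HSP30 all had their lowest value on array 4, where only 3 of the 10 members were above the array median, against 5, 5 and 8 on arrays 1 to 3.

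**Figure D3:**
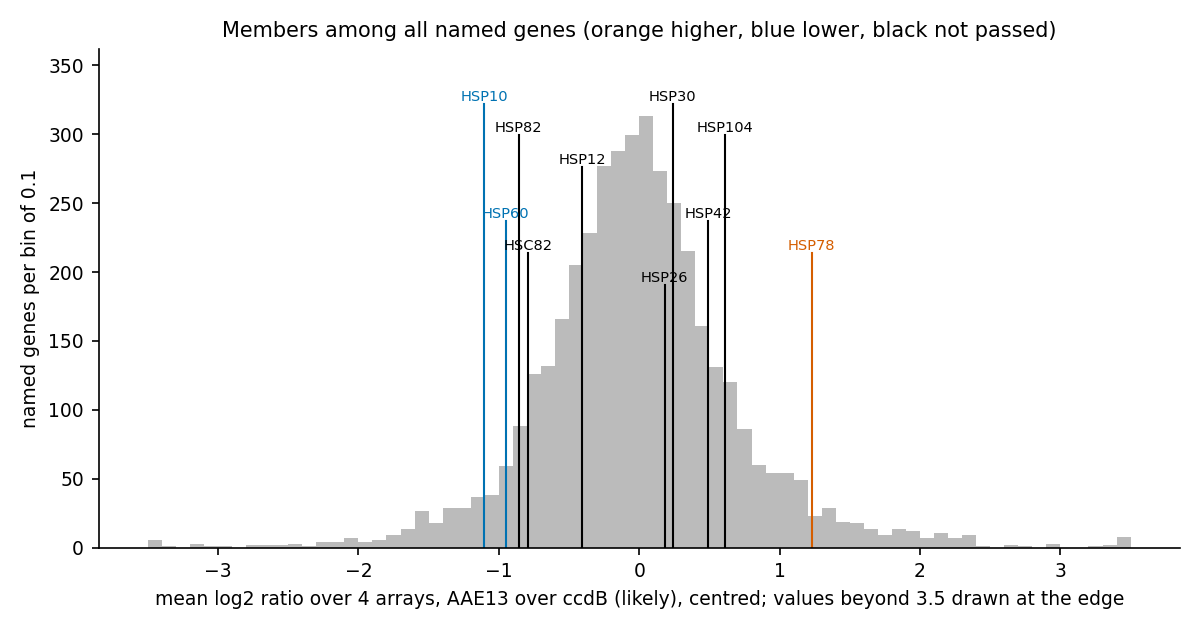
Histogram of the mean log2 ratio of all named genes (horizontal axis, centred, likely AAE13 over ccdB; vertical axis, genes per bin of 0.1), with a line at each heat shock protein gene. HSP78 at 1.23 lies in the upper tail, HSP10 at -1.10 and HSP60 at -0.95 lie in the lower tail, and the other 7 lie between -0.86 and 0.61.

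Related genes bearing the HSP name or related to a member were sparse among the named genes tested. HSP31, HSP32, HSP33 and SNO4, a family of close copies, were not analysed here, since no probe carries 1 of these names alone. HSP150, a cell wall glycoprotein gene, was at -0.11 ± 0.51 (SD, n = 4; adjusted p = 0.742, limma). The 2 genes related to HSP30 both rose. MRH1 had log2 ratios of 1.24, 1.97, 2.71 and 1.99, with a mean of 1.98 ± 0.60 (SD, n = 4; 3.94-fold; limma adjusted p = 0.00191). YRO2 had log2 ratios of 1.45, 2.48, 2.37 and 1.54, with a mean of 1.96 ± 0.54 (SD, n = 4; 3.89-fold; limma adjusted p = 0.00161). On each array both lay above HSP30, by at least 0.44; that difference was noticed in the values and was not tested.

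Genes of the general stress response to which HSP12, HSP26, HSP42, HSP78 and HSP104 are usually counted rose widely. Of 26 listed genes 25 were tested, and 18 rose, 0 fell and 7 did not pass. Thus 72% of the tested genes passed, all as higher, beside 24.8% of all named genes, 13% as higher. The list, like the others, was chosen with earlier results of these data known. The median of the list was 1.09 and lay between 1.11 and 1.23 on the single arrays. Catalase CTT1 was at 2.32 ± 0.29, the secreted glycoprotein gene YGP1 at 2.06 ± 0.40 and the trehalose synthase subunit gene TSL1 at 1.94 ± 0.22 (SD, n = 4; adjusted p = 0.000350, 0.000797 and 0.000539, limma). Of the heat shock protein genes just named, only HSP78 had a mean above the median of the list, and HSP12 was below the list's median on every array.

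The regulators were tested at their own transcripts. MSN4 had log2 ratios of 0.80, 0.73, 2.06 and 1.68, with a mean of 1.32 ± 0.66 (SD, n = 4; limma adjusted p = 0.0108). Like HSP78, it was higher on arrays 3 and 4, and its call was lost without array 4 (adjusted p = 0.0633). CLU1 (0.88, 0.73, 1.94 and 1.77) and MCD4 (0.59, 0.38, 1.96 and 1.63) had the same split between arrays. Both were picked for profiles near that of HSP78, so their split follows from how they were chosen. The split was not particular to these genes. ADE17 (-0.17, 0.12, -3.16 and -3.09) and ADE13 (-0.52, -0.25, -3.15 and -2.95), picked after their values were seen, were lower on arrays 3 and 4. What lies behind the split was not tested. MSN2, the close relative of MSN4, was at 0.20 ± 0.38 and HSF1 at -0.09 ± 0.69 (SD, n = 4; adjusted p = 0.481 and 0.826, limma). GIS1, a transcription factor of the post-diauxic response, was at 0.69 ± 0.80, the factor gene SKN7 at -0.11 ± 0.17, and the kinase gene RIM15 at -0.69 ± 0.59 (SD, n = 4), and none of these passed (limma; adjusted p = 0.651 for SKN7 and 0.0734 for RIM15). GIS1 passed with a dye term (adjusted p = 0.0215) or with the arrays not centred (0.0186), and RIM15 passed without array 3 (0.0301).

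Hsp90 works with co-chaperones that load clients, set its ATPase rate or act on it chemically. Of 12 such genes 10 were tested, and 0 rose, 4 fell and 6 did not pass, with a median of -0.54. Thus 40% of the tested genes passed, all as lower, beside 24.8% of all named genes, 11.8% as lower. STI1, which bridges Hsp70 and Hsp90, had log2 ratios of -1.94, -1.05, -1.62 and -0.68, with a mean of -1.32 ± 0.57 (SD, n = 4; limma adjusted p = 0.00751). The phosphatase gene PPT1 was at -1.08 ± 0.70 and the peptidyl-prolyl isomerase gene CPR6 at -1.01 ± 0.41 (SD, n = 4; adjusted p = 0.0266 and 0.0114, limma), and the remaining call was HCH1, a relative of the ATPase activator AHA1, at -0.71 ± 0.18 (SD, n = 4; limma adjusted p = 0.0201). The count was 2 without array 1 or array 4, where PPT1 and HCH1 lost their calls, and HCH1 also did so without array 2 (adjusted p = 0.0617). With the arrays not centred none of these 4 passed; the median of the list was 0.07 and 1 gene, SGT1, passed as higher.

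The Hsp70 machinery that works with Hsp104 was mixed. Of 9 listed genes 8 were tested, and 0 rose, 3 fell and 5 did not pass, with a median of -0.44. The share that passed was 37.5%, beside 24.8% of all named genes, 11.8% as lower. SSA3 was at -3.39 ± 0.63, the J-protein gene YDJ1 at -1.03 ± 0.64 and the exchange factor gene SSE1 at -0.92 ± 0.65 (SD, n = 4; adjusted p = 0.000301, 0.0246 and 0.0382, limma). YDJ1 lost its call without array 1, 2 or 4 (adjusted p from 0.0506 to 0.0856) and SSE1 without array 1 or 2 (0.134 and 0.0815) or with a dye term (0.0582), and only SSA3 of the list passed without array 1. With the arrays not centred SSA3 was still lower and SSA4 passed as higher.

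In the mitochondrial matrix, of 12 listed chaperone and protease genes 11 were tested. Of these 1 rose, 0 fell and 10 did not pass, with a median of 0.21. The share that passed, 9.09%, was below the 24.8% of all named genes. The gene that rose was TCM62, a distant relative of HSP60 needed to assemble succinate dehydrogenase, at 0.87 ± 0.59 (SD, n = 4; limma adjusted p = 0.0379), and it did not pass without array 2 (0.0694) or array 4 (0.139). For the cytosolic chaperonin and its loading factor prefoldin, all 15 genes were tested. Of these 1 rose, 0 fell and 14 did not pass, with a median of -0.11. At 6.67%, this share was also below that of all named genes. The prefoldin subunit gene GIM3 was at 0.73 ± 0.39 (SD, n = 4; adjusted p = 0.0350, limma) and lost its call without array 1, 2 or 4 (adjusted p from 0.0587 to 0.127).

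**Figure D4:**
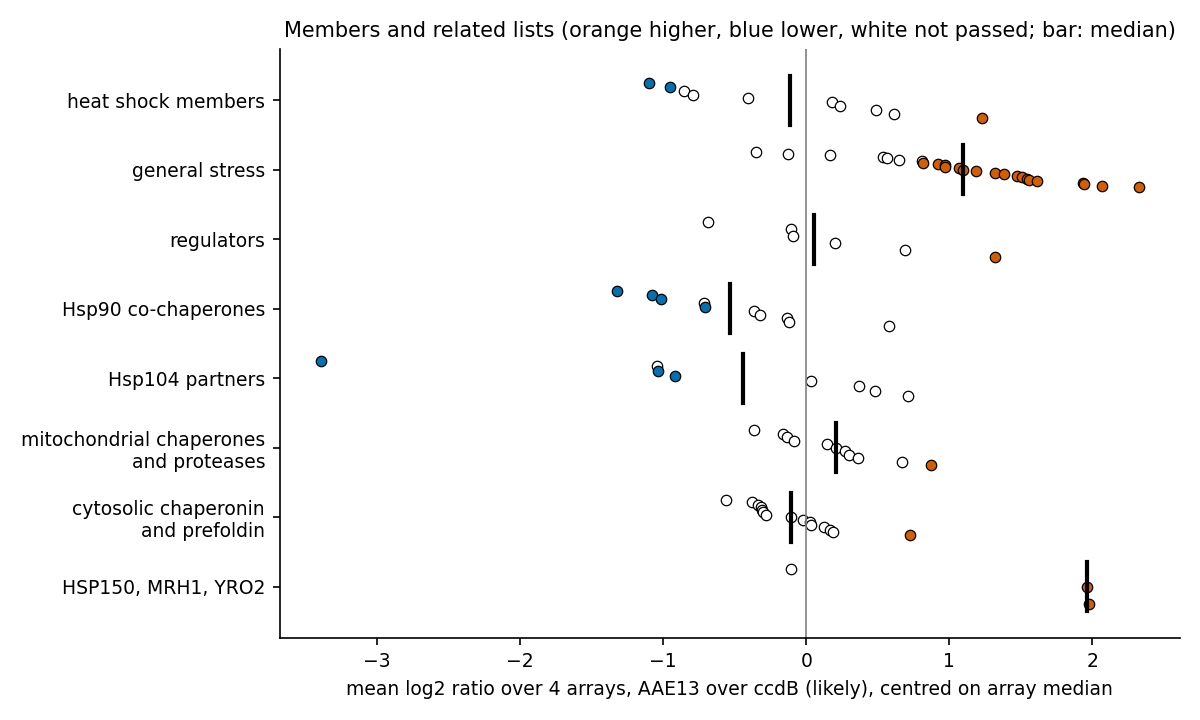
Mean log2 ratio over 4 arrays (horizontal axis, centred, likely AAE13 over ccdB) of each tested gene in the heat shock protein set and in 7 related lists, with a bar at the median of each list; filled points passed (orange higher, blue lower) and white points did not. The general stress list has its median at 1.09 and the heat shock members at -0.11.

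Of the genes that lie directly beside a member in the order of the R64 reference, 10 of 20 were among the named genes tested. Of these 4 rose, 1 fell and 5 did not pass, beside 13% higher and 11.8% lower among all named genes. Beside HSP104 lies ISA1, an iron-sulfur cluster assembly gene, which rose at 2.14 ± 0.74 (SD, n = 4; adjusted p = 0.00229, limma). HSP82 lies between CIN2, which rose at 1.37 ± 0.14, and YAR1, which fell at -0.63 ± 0.18 (SD, n = 4; adjusted p = 0.00152 and 0.0307, limma). YAR1 lost its call without any one of the arrays (adjusted p from 0.0547 to 0.132) and with the arrays not centred. Beside HSP60 lies GSY2, a glycogen synthase gene that is also in the general stress list. GSY2 rose at 1.18 ± 0.15 (SD, n = 4; adjusted p = 0.00257, limma) where HSP60 fell. On the other side of HSP60, LCB5 was at -0.35 ± 0.36 and did not pass (SD, n = 4; adjusted p = 0.210, limma). Beside HSP78 lies RKM4, a gene for a ribosomal protein methyltransferase, which rose at 1.16 ± 0.37 (SD, n = 4; adjusted p = 0.00573, limma), and YAP6 on its other side was at 0.26 ± 0.30 (SD, n = 4; adjusted p = 0.326, limma).

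The 3 members that passed were set against all other genes by the root mean square difference of their log2 ratios over the 4 arrays, as a description. Nearest to HSP78 were HEM13, CLU1 and MCD4, at 0.12, 0.16 and 0.18. Nearest to HSP60 were TEF2, PPT1 and RPS9B, at 0.10, 0.15 and 0.17, of which PPT1 is also in the Hsp90 list and TEF2 encodes translation elongation factor 1 alpha. Nearest to HSP10 were RRP9, MPC54 and LOT6, at 0.12, 0.12 and 0.15.

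**Figure D5:**
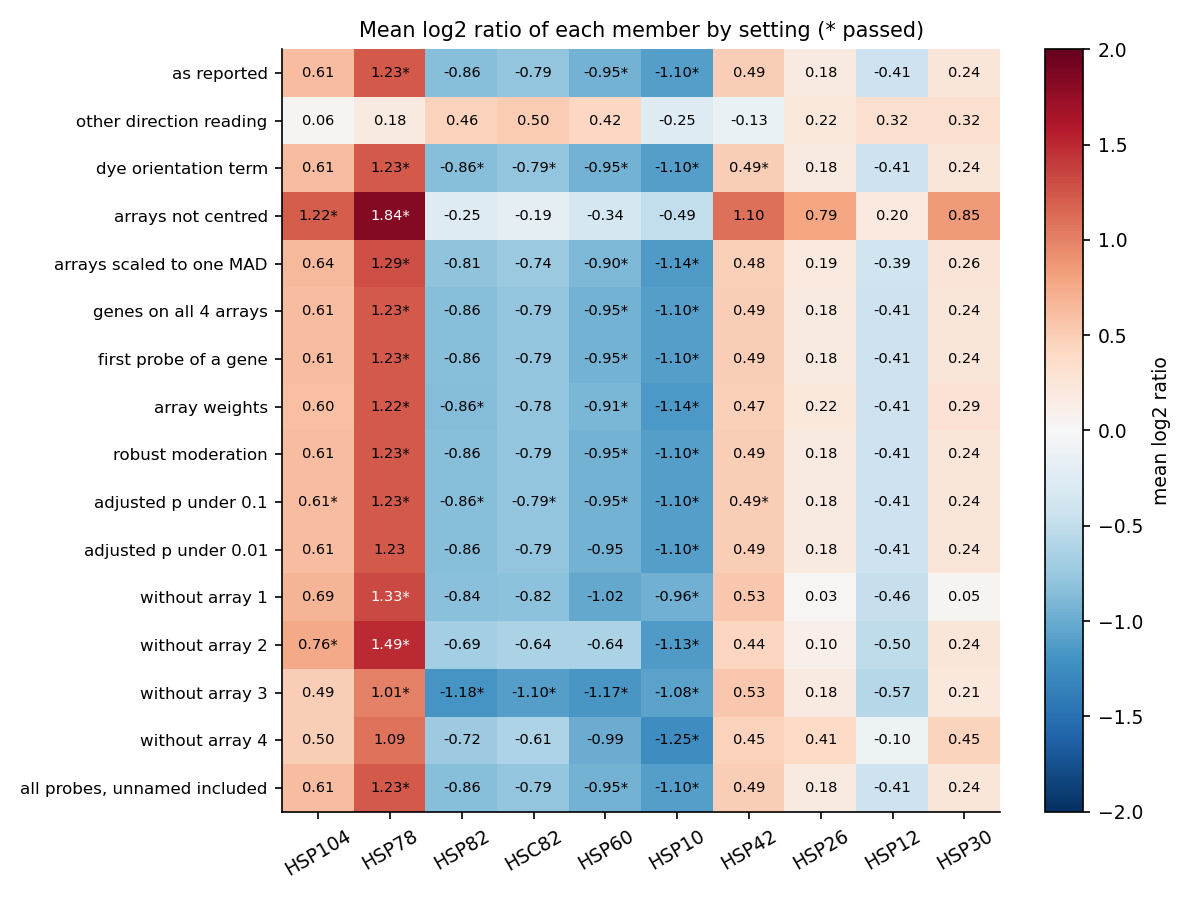
Mean log2 ratio of each heat shock protein gene (columns, colour and printed value) under each way of processing the arrays (rows); an asterisk marks a gene that passed in that setting. HSP104, HSP78, HSP10, HSP26 and HSP30 keep their sign in every row, and the rows with arrays not centred and with the other direction reading differ most from the first.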

How the data were processed

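The deposited table holds a log2 ratio per probe for each of 4 two-colour arrays. That the values are logarithms of base 2 was inferred from them, and how the authors scanned and normalized the arrays, and which strain is the numerator, is not stated. Per the labels' protocols, cDNA was primed with oligo-dT and labelled indirectly with Alexa dyes. Array medians as deposited ran from -0.17 to 1.41, and each array was centred on its median. Of the probes, 4075 carry 1 gene name in the platform annotation. The other 2181 do not carry a single gene name and were left out of the test of named genes. Older symbols were updated through a RefSeq gene table (R64), from which only names and the order of genes were taken. Probes of a gene were averaged, and genes measured on at least 3 arrays were kept.

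In R 4.3.3, limma 3.58.1 (lmFit, then eBayes) tested whether each mean ratio differs from 0, two-sided, and p-values were adjusted by Benjamini-Hochberg over all 4072 genes, with a threshold of 0.05. Each ratio already pairs 2 cultures. The script was tested on simulated data. Pairs of members were compared by an exact sign-flip test. Genes outside the 10 members were named by rule: all relatives and regulators, the 3 largest called changes of each other list, and the 3 nearest profiles of each called member. HCH1, SGT1, SSA4, ISA1, CIN2, YAR1, GSY2, LCB5, RKM4, YAP6, ADE13 and ADE17 were added after their values were seen. Members and lists were chosen with earlier results of these data known. As alternatives, the signs of arrays 2 and 4 were turned (the other direction reading), and the processing was repeated with a dye term, no centring, scaling of the arrays, genes on all arrays, 1 probe per gene, array weights, robust moderation, other thresholds and leaving out each array. A fit over all probes was added after seeing the data. Plots were made in matplotlib 3.10.9 under Python 3.11.15.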

Additional observations from a re-analysis of the deposited data

How the results depend on the processing

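Under the other direction reading, with the signs of arrays 2 and 4 turned, 0 of 4072 genes passed in limma (154 at an unadjusted p under 0.05) and so 0 members (0 at an unadjusted p under 0.05) and 0 genes of the related lists. Signs that turned in that reading were those of HSP12 (0.32), HSP42 (-0.13), HSP60 (0.42), HSP82 (0.46), HSC82 (0.50), HSP150 (0.38), MRH1 (-0.0029), YRO2 (-0.050), MSN2 (-0.24), GIS1 (-0.67), SKN7 (0.024), RIM15 (0.32), PPT1 (0.49), TCM62 (-0.45), GIM3 (-0.25), SSA3 (0.021), YDJ1 (0.17), CTT1 (-0.067), TSL1 (-0.078), TEF2 (0.47), RPS9B (0.37), SGT1 (-0.28), ISA1 (-0.31), CIN2 (-0.11), GSY2 (-0.12), YAP6 (-0.10) and HSP26 minus HSP42 (0.36). With the arrays not centred, HSP12 (0.20), HSP150 (0.50), HSF1 (0.52) and SKN7 (0.50) turned. With 1 array left out, HSP150 ran from -0.34 to 0.044 and turned without array 2, HSF1 ran from -0.29 to 0.21 and turned without array 1, and HSP60 minus HSP10 ran from -0.089 to 0.49 and turned without array 1 (-0.060) or array 3. The 3 calls among members became 6 with a dye term, 7 at an adjusted p under 0.1 and 1 at 0.01, and ran from 1 to 5 when an array was left out. All called genes numbered 1011, 390 at 0.01, and from 428 to 1044 with an array left out; calls in the related lists numbered 30, 17 at 0.01, and from 21 to 34. Calls in single lists ran, in settings that keep the direction reading, from 1 to 6 for Hsp90 co-chaperones, 0 to 2 for the mitochondrial and for the cytosolic chaperonin list, 1 to 4 for Hsp104 partners and 13 to 22 for general stress. These lists had, in that order, 10, 11, 15, 8 and 25 tested genes. Over the same settings the share of all named genes that passed ran from 9.58% to 35.4%. HSP10 passed in 13 of 15 alternatives, HSP78 in 12 and HSP60 in 9. The cause of these shifts was not tested. No further paired analysis was possible because each ratio is already the difference of the paired cultures of an array. The number of arrays and the unknown signal over background limit what could be resolved.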
